A study of Mus musculus with 36 samples.

Results

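The EV-to-cell ratio shift at 320 mg/dL ethanol was the quantity measured here. In each culture, the log2 ratio of a gene's level in secreted extracellular vesicles (EVs) to its level in the secreting cells was taken at 320 mg/dL ethanol, and the same culture's ratio without ethanol was subtracted. A positive shift means relatively more of the transcript in EVs at 320 mg/dL, and a negative shift relatively more in the cells. The measure used 24 of the 36 libraries, in 6 cultures with 4 libraries each. It was described over RNA classes, 31 gene lists and single genes.

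The cells were neural stem cells (NSCs) of the dorsal telencephalon, the fetal tissue that gives rise to the cortex, from wild-type C57BL/6J mice at gestational day 12.5 (the study's methods add the Ai14 reporter allele). Fetuses were pooled by sex within each of 3 pregnancies (Sets 3, 4 and 5), so that 3F is the female and 3M the male culture of Set 3. Neurospheres, free-floating clusters of NSCs, were kept in capped and sealed flasks for 5 days without ethanol or at 120 or 320 mg/dL, with fresh medium on day 3. EVs were taken from the medium by a 0.2 µm filter and ultracentrifugation, and 1 EV and 1 cell library were made per culture and dose, with 6 libraries in each of the groups EV control, EV 320, cell control and cell 320. The 2 cultures of a pregnancy share their dam, and the libraries of a culture share its cells, so the cultures are the replicates.

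EVs are membrane vesicles that cells release and that carry RNA and protein to other cells. Their RNA is not a plain sample of the cytoplasm, because size, binding proteins and retention in the nucleus all affect what is packed, and a ratio of EV to cell level separates such packing from the level in the cell itself. A ratio can move through either side, so the EV change and the cell change that make up each shift are given with it. In bulk libraries a smaller number of cells of a type and less RNA per cell cannot be told apart.

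EV libraries were far shallower than cell libraries. They held 1.12 to 5.47 M counts (M, counts on genes in units of 1000 times 1000) without ethanol and 1.55 to 4.24 M at 320 mg/dL, against 32.6 to 45.4 M and 26.6 to 38.9 M in cells. Within cultures, EV depth differed most between doses in 3F (1.12 M without ethanol, 4.24 M at 320 mg/dL) and 3M (3.35 M and 1.61 M). The summed CPM (counts scaled to the library total) of 4 Y-linked genes lay at 202 to 280 in male and 0.583 to 1.58 in female cells, and at 30.2 to 47.3 and 0.889 to 5.15 in EVs, so no library went against its sex label. Of 12 NSC markers, 11 had a mean over 1 CPM in cells, with a summed level of 4008 to 6137 CPM without ethanol and 3686 to 5651 CPM at 320 mg/dL, while Sox2 was listed at 0 in all 12 cell libraries. No marker of microglia and blood (0 of 6) or epithelium (0 of 4) had a mean over 1 CPM in cells, and neuronal markers summed to 640 to 1233 CPM without ethanol and 566 to 1077 CPM at 320 mg/dL. A pair of libraries stood apart. The 320 mg/dL cell library of 3F had 6.67% of its counts on small structural RNAs, against 1.71% to 3.63% in the other cell libraries. The 320 mg/dL EV library of 4F had the lowest TMM scaling factor, 0.525 against 0.650 to 1.23 in the other EV libraries. The CPM of single genes below were also divided by each library's TMM factor, unlike the summed CPM here.

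No gene passed the test of the shift. Of 17400 genes tested with edgeR's quasi-likelihood test, 0 (0%) had a Benjamini-Hochberg adjusted p under 0.05, and the smallest adjusted p was 0.30. At an unadjusted p under 0.05 there were 823 genes (4.73%), of which 321 (1.84%) had a higher and 502 (2.89%) a lower shift. The lean toward lower shifts was kept in most alternatives but not in all. More genes were higher with a mean of at least 10 counts per location (411 of 754) and after thinning all libraries to one total (271 of 521). The same held with only the EV and cell pair as block (81 of 159) and by the study's criteria (296 of 424). DESeq2 called 11 genes and limma voom 0. Of the genes named below, those called by DESeq2 were Adgrb1, Mdm2 and Gm33827 (higher) and Rbbp8 and Sec22c (lower). The shift was above 0 in all 6 cultures for 263 genes (1.51%) and below 0 in all 6 for 429 (2.47%).

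The spread between cultures was larger than the typical shift. The median absolute shift was 0.27 on the log2 scale and the median SD over the 6 cultures was 0.83. The median of all genes was 0.22 in 3F, -0.11 in 3M, -0.18 in 4F and -0.04 to -0.01 in 4M, 5F and 5M, an offset that list medians of single cultures also carry. The EV side carried most of this spread, with a median SD of 0.70 for the EV change against 0.36 for the cell change, and median absolute changes of 0.26 and 0.10. Tested alone, the EV change (0 of 10839 genes, 0%; 1397 at an unadjusted p under 0.05) and the cell change (0 of 17088 genes, 0%; 810 at an unadjusted p under 0.05) also had no gene past an adjusted p of 0.05 in edgeR. DESeq2 called 164 of the 3274 genes it left with an adjusted p for the EV change (21 higher, 143 lower). For the cell change it called 12 of 14769 (7 higher, 5 lower). The values differed with EV depth. Genes with a mean of at most 10 counts per EV library had a median shift of 0.03 and a median SD of 1.96, and 2.89% were under an unadjusted p of 0.05, whereas the 756 genes with over 300 counts had a median shift of -0.19 and a median SD of 0.52, and 14.6% were under it.

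RNA classes were compared by their share of each library's counts. The 13 classes were tested by an exact two-sided sign-change permutation test over the 6 cultures, in which the smallest possible p is 0.03125. None passed, and all adjusted p were 1. After adjustment over 13 classes, a single class could not have passed even at the smallest possible p. The adjusted result therefore cannot decide whether any single class shifted. Before adjustment the smallest exact p was 0.156 for shares, so no class reached the smallest possible p. The classes nearest to one sign were microRNA precursors and pseudogenes. MicroRNA precursors had a mean shift of -0.62 ± 0.79 (SD, n = 6, exact p = 0.156), lower in 5 of 6 cultures. Its 21 tested loci had a median shift of -0.26 with 5 above 0, and Mir6240 held most of the counts. Pseudogenes were at -0.51 ± 0.77 (SD, n = 6, exact p = 0.156), also lower in 5 of 6.

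**Figure D1:**
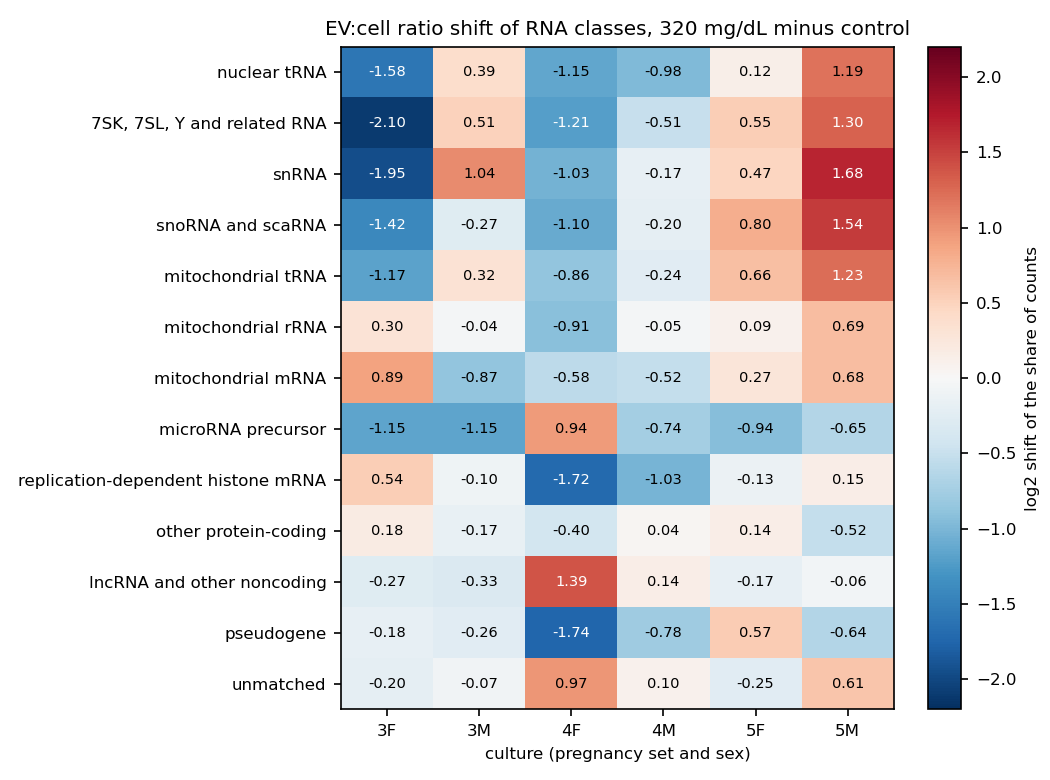
Heatmap of the log2 shift of 13 RNA classes (rows) in the 6 cultures (columns), each cell giving the shift in the class's share of all counts, with colour from blue (lower in EVs relative to cells at 320 mg/dL) to red (higher). The nuclear tRNA, 7SK, 7SL and Y RNA, snRNA, snoRNA and mitochondrial tRNA rows are blue in 3F, 4F and 4M and red in 5F and 5M, and other protein-coding mRNA runs from -0.52 to 0.18.

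Small structural RNAs had shifts of one sign within most cultures and of opposite signs in different cultures. These are the tRNAs, which carry amino acids to the ribosome, the 7SK, 7SL and Y RNAs, the snRNAs of the spliceosome, the snoRNAs and scaRNAs that guide RNA modification, and the mitochondrial tRNAs. The 7SK, 7SL and Y class shifted by -2.10 in 3F, 0.51 in 3M, -1.21 in 4F, -0.51 in 4M, 0.55 in 5F and 1.30 in 5M, a mean of -0.25 ± 1.27 (SD, n = 6, exact p = 0.719). Nuclear tRNA shifted by -1.58, 0.39, -1.15, -0.98, 0.12 and 1.19 in the same order, and snRNA by -1.95, 1.04, -1.03, -0.17, 0.47 and 1.68. As shares of all counts, the 5 classes were negative in 3F, 4F and 4M and positive in 5F and 5M, and in 3M snoRNAs and scaRNAs were at -0.27 while the others were positive. Scaling turned some of these signs. TMM scaling moved every class by the same amount within a culture, 1.28 in 4F, 0.43 in 5M and -0.37 to 0.01 in the others, which placed all 5 classes above 0 in 4F (0.07 to 0.42) and nuclear tRNA at -0.11 in 5F. On both scales all 5 were below 0 in 3F and 4M and above 0 in 5M. Across the 6 cultures their shifts correlated with each other at r = 0.881 to 0.989 as shares, in 10 pairs, and at 0.899 to 0.990 on the TMM scale, a description of classes that share their libraries and their total.

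The means rested on single cultures. Without 3F the mean of the 7SK, 7SL and Y class was 0.13 as a share and 0.38 on the TMM scale, and without 4F it was -0.05 and -0.12. Nuclear tRNA was at -0.08 and 0.17 without 3F and at -0.17 and -0.24 without 4F, and snRNA at 0.40 and 0.65 without 3F and at 0.21 and 0.14 without 4F.

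Those shifts came from different sides in different cultures. Small structural RNAs made up 1.71% of cell counts in 3F without ethanol and 6.67% at 320 mg/dL, while EVs of 3F held 1.33% and 1.15%. In 4F the cell share was 2.63% and 2.89%, and the EV share was 1.80% and 0.836%. In 5M the EV share was 0.971% without ethanol and 1.77% at 320 mg/dL, and the cell share 2.88% and 1.96%. With 1 library per culture, dose and location, the part of single libraries in these values was not tested.

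The mitochondrial rRNAs, mt-Rnr1 and mt-Rnr2, made up 10.9% ± 3.19 of EV counts without ethanol and 12.6% ± 6.14 at 320 mg/dL, and 26.8% ± 4.55 and 27.8% ± 4.45 of cell counts (SD, n = 6 each). Their shift was 0.01 ± 0.53 (SD, n = 6, exact p = 0.938). Mitochondrial mRNAs were at -0.02 ± 0.73 (SD, n = 6, exact p = 1). Long noncoding RNAs had a shift of 1.39 in 4F and of -0.33 to 0.14 in the other cultures. A few loci weigh heavily in this class, with Gm36876 at up to 23.1% and AY036118 at up to 10.7% of a library's counts. Without features over 1% of counts, the class shift was 1.129 in 4F and -0.895 to 0.331 in the other cultures. Other protein-coding mRNA also holds such features, among them Cdk8 at up to 16.1% of a library's counts. Its shifts ran from -0.52 to 0.18 over cultures with them and from -0.10 to 0.12 without them.

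Replication-dependent histone genes stood lowest among the larger gene lists. These genes encode the H1, H2A, H2B, H3 and H4 proteins that package newly made DNA in S phase, and their mRNAs end in a conserved stem-loop in place of a poly(A) tail, which ties their stability to DNA synthesis. The stem-loop was looked for as GGNNCT, a loop of 4 bases of any kind and AGNNCC on the transcript strand only within 100 bases after the stop codon. It was found in 57 of the 62 listed genes (91.9%), against 66 of 21569 other protein-coding genes (0.306%). The following 3′ UTR stretches, read from the GRCm39 genome with the GENCODE gene models and written 5′ to 3′ on the transcript strand, show it in capitals for 3 of the genes with the most negative shifts, for an H2A gene on another chromosome and for the most abundant gene of the list in EVs.
H3c10, chr13:21902260-21902285 (+): tcaaaGGCTCTTTTCAGAGCCaccca
H4c12, chr13:21934315-21934340 (-): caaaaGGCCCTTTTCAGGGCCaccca
H2ac11, chr13:22226648-22226673 (-): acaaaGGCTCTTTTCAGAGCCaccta
H2ac20, chr3:96127729-96127754 (-): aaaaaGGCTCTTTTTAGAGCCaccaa
H1f4, chr13:23805760-23805785 (-): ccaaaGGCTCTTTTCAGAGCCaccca
The 49 tested genes with the motif had a median shift of -0.40 and the 4 without it a median of -0.32.

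Of the 53 histone genes with enough counts, 44 had a negative shift (52.1% of all genes did) and the median was -0.40, against -0.02 over all genes. At an unadjusted p under 0.05, 14 were lower and 0 higher, where 2.89% of all genes were lower, and 8 were lower in all 6 cultures, where 2.47% of all genes were. None passed an adjusted p of 0.05. Averaged over cultures, the cell side was the more uniform across genes, although 0 of the 53 genes rose in cells in all 6 cultures. The cell change was above 0 for 52 of the 53 genes (50.1% of all genes), with a median of 0.39, and 23 had an unadjusted p under 0.05 in cells, where 2.43% of all genes were higher, with a smallest adjusted p of 0.98. The EV change had a median of -0.02 and was above 0 for 25 of the 53 (47% of all genes).

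The core histones and the linker histones had different values. All 12 H2A genes were below 0, with a median shift of -0.61, and so were all 10 H3 genes, with a median of -0.53. H4 genes had a median of -0.41 (9 of 12 below 0) and H2B genes a median of -0.27 (11 of 14 below 0). The 5 H1 genes, which encode the linker histones that bind DNA between nucleosomes, had a median of 0.01, and their medians were 0.34 in EVs and 0.31 in cells. H1 genes also had the most counts, a median of 244 per EV library against 25 for H2A, and whether depth takes part in the difference was not tested. Histone genes are near-identical copies, so the split of reads among members of a subtype is uncertain.

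**Figure D2:**
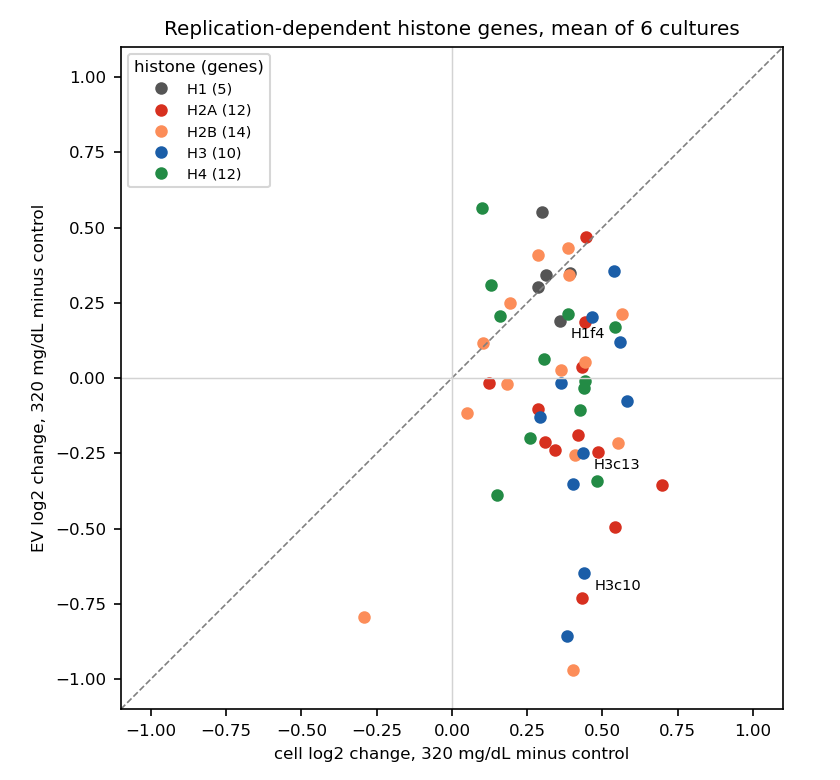
Mean log2 change at 320 mg/dL over the 6 cultures in cells (horizontal axis) and EVs (vertical axis) for the 53 replication-dependent histone genes, coloured by subtype, where the diagonal marks a shift of 0. Of the 53 points, 52 lie right of 0 in cells and most lie below the diagonal, while the H1 genes lie from 0.17 below to 0.25 above it.

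H3c10, a gene of histone H3 on chr13:21901829-21902239, had EV levels of 13.4 to 40.2 CPM without ethanol (median 20.4) and 6.16 to 27.1 CPM at 320 mg/dL (median 12.4). In cells it was at 2.74 to 66.7 CPM (median 16.5) and 4.70 to 63.6 CPM (median 26.8). The groups overlapped on both sides, since cultures differed more than doses did, but each culture's own shift was negative, at -0.30 in 5M and -1.42 to -1.01 in the others. Its log2 shift was -1.04 (SE 0.21, adjusted p = 0.54). H2ac11 (log2 shift -1.05), H2ac7 (-0.94), H4c12 (-0.84), H3c13 (-0.71), H2ac10 (-0.71), H2bc14 (-0.64) and H2ac20 (-0.52) were the others below 0 in all 6 cultures. H1f4, with 83 to 373 CPM in EVs at 320 mg/dL and 97.4 to 240 CPM without ethanol, had a log2 shift of -0.17 (SE 0.26).

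The histone shift was not alike in all cultures. The list median was -0.16 in 3F, -0.32 in 3M, -0.43 in 4F, -1.08 in 4M and -0.45 in 5F, and 0.42 in 5M. All 53 genes were below 0 in 4M, and 13 were in 5M. Leaving out 4M gave a median of -0.20 with 6 genes lower at an unadjusted p under 0.05, and leaving out 5M gave -0.55 with 24, while without 3F or 4F the medians were -0.38 and -0.40. Summed over the class on the same TMM scale, the shift was 0.17 in 3F, -0.30 in 3M, -0.43 in 4F, -1.02 in 4M, -0.37 in 5F and 0.58 in 5M, a mean of -0.23 ± 0.55 (SD, n = 6, exact p = 0.375). As a share of all counts it was -1.72 in 4F and the mean was -0.38 ± 0.83 (SD, n = 6, exact p = 0.375). In cells the median change was positive in 5 cultures and -0.38 in 3M, where 0 of the 53 genes were above 0.

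Other cell cycle lists had smaller negative medians. Genes of G2 and mitosis had a median shift of -0.19, with 39 of 53 below 0 (52.1% of all genes were), 5 lower and 0 higher at an unadjusted p under 0.05, where 2.89% of all genes were lower and 1.84% higher. Their median was 0.22 in 3F, where that of all genes was also 0.22, and between -0.45 and -0.03 in the other cultures, and their medians were -0.04 in EVs and 0.13 in cells. Nek2, a kinase of the centrosome, was at 56.5 to 158 CPM in control EVs (median 115) and 28.4 to 103 CPM at 320 mg/dL (median 71.9), against medians of 13 and 14.4 CPM in cells. Its log2 shift was -0.81 (SE 0.20, adjusted p = 0.76), although the ranges of the EV levels overlapped. It was below 0 in 6 of 6 cultures, which was a condition for the list members named by smallest p. Cdk1, the kinase that drives entry into mitosis (-0.65), Cdc25b (-0.53) and Cdc25c (-0.64), the phosphatases that activate it, and the kinetochore gene Cenpf (-0.49) were the other members lower at an unadjusted p under 0.05. Genes of DNA replication and S phase had a median of -0.16, with 32 of 51 below 0, 4 lower and 2 higher at an unadjusted p under 0.05, against the same shares of all genes. The G2 and mitosis median was -0.22 without 3F, -0.20 without 4F and -0.14 without 5F, where 3 genes were lower and 1 higher, and -0.11 after all libraries were thinned to one total. The S phase median was -0.20 without 3F, -0.12 without 4F, -0.09 without 4M and -0.03 without 5F, and 0.04 after thinning. The GINS subunit gene Gins1 (log2 shift -1.04) was below 0 and the helicase gene Mcm2 (0.72) above 0 in all 6 cultures.

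Genes of mRNA processing had positive medians. The spliceosome joins exons, SR and hnRNP proteins choose splice sites, and export factors carry the spliced mRNA out of the nucleus. Core spliceosome genes had a median shift of 0.22 with 43 of 64 above 0 (47.9% of all genes were), SR and hnRNP genes 0.19 with 38 of 46, and export and exon junction complex genes 0.15 with 25 of 33. At an unadjusted p under 0.05 there were 4, 5 and 4 higher and 2, 0 and 0 lower genes in the 3 lists, where 1.84% of all genes were higher. Genes of 3′ end processing had a median of 0.16 with 12 of 18 above 0. In the spliceosome list the median EV change was 0.15 and the median cell change -0.07, and in the SR and hnRNP list 0.15 and -0.09.

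These medians were carried by some cultures more than others. For SR and hnRNP genes the median was 0.44 in 3F, 0.02 in 3M, -0.04 in 4F, -0.04 in 4M, 0.16 in 5F and 0.63 in 5M. For the core spliceosome it was 0.54 in 3F, 0.56 in 5M and between -0.14 and 0.09 in the other 4. Without 5M the medians were 0.18 with 2 genes higher at an unadjusted p under 0.05, and 0.12 with 3, without 3F they were 0.20 with 7 and 0.20 with 4, and without 4F they were 0.25 with 6 and 0.23 with 6. The export median was 0.19 without 3F, 0.21 without 4F and 0.11 without 5F, with 2 genes higher without 4M, 5F or 5M. Scaling by library totals, which moved the median of all genes to -0.14, gave 0.07 and 0.11.

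Hnrnpl, a splicing regulator, was at 66.3 to 851 CPM in control EVs (median 196) and 192 to 1430 CPM at 320 mg/dL (median 640), while in cells the medians were 125 CPM without and with ethanol. The log2 shift was 1.27 (SE 0.44, adjusted p = 0.997), from 0.16 in 3M to 4.19 in 5F, so that its size rested on 5F and 5M. Srsf10, a splicing factor, was at 10.3 to 17.1 CPM in control EVs and 13.7 to 31.1 CPM at 320 mg/dL, with a log2 shift of 0.64 (SE 0.23, adjusted p = 0.997), above 0 in 6 of 6 cultures. The spliceosome genes Sf3a2 (0.85) and Ddx42 (0.49) and the export helicase gene Ddx39a (0.55) were also above 0 in all 6 cultures, whereas Prpf4 (-0.51) was below 0 in all 6.

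The study lists 24 genes for this contrast under the processing and transport of capped pre-mRNA and ISG15 pathways, chosen on these same libraries, so their direction is not independent evidence. All 24 had a positive shift, with a median of 0.38. The list medians were 0.68 in 3F, 0.09 in 3M, 0.24 in 4F, 0.21 in 4M, 0.39 in 5F and 0.66 in 5M. In edgeR 0 of the 24 passed an adjusted p of 0.05, with 6 at an unadjusted p under 0.05, and the median EV change was 0.30 and the median cell change -0.08. Without 5M the median was 0.31 with 3 genes at an unadjusted p under 0.05.

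Cytosolic ribosomal protein genes had similar shifts within each culture and opposite ones between cultures. They encode the proteins of the ribosome, and 80 were tested. Their median shift was -1.14 in 3F, 0.37 in 3M, -0.42 in 4F, -1.09 in 4M, 0.39 in 5F and 1.27 in 5M, with 1.25% of them above 0 in 3F, 0% in 4M and 98.8% in 5M. Over the 6 cultures the median was -0.12 with 16 of 80 above 0, and 0 genes had an unadjusted p under 0.05. Without 3F the median was 0.14, without 4M 0.11 and without 4F -0.08, so that the sign over all cultures rested on single cultures.

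**Figure D3:**
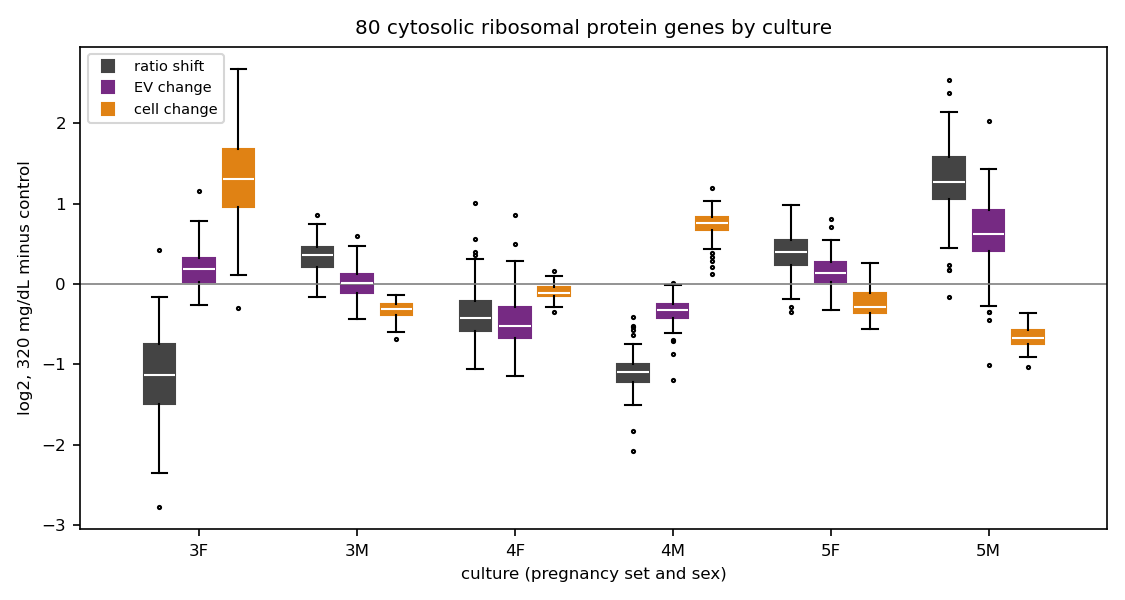
Box plots of 80 cytosolic ribosomal protein genes in each of the 6 cultures for the log2 shift, the EV change and the cell change at 320 mg/dL (box, quartiles; white line, median; whiskers, 1.5 times the interquartile range). Genes of a culture lie close together while cultures differ in sign, and the cell change runs from a median of 1.31 in 3F to -0.67 in 5M.

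Both sides took part in this. The cell change of the ribosomal protein genes had medians of 1.31 in 3F, -0.31 in 3M, -0.11 in 4F, 0.76 in 4M, -0.28 in 5F and -0.67 in 5M. The EV change had medians of 0.19, 0.01, -0.52, -0.32, 0.13 and 0.62 in the same order.

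Energy and protein synthesis lists had medians between -0.10 and 0.05. Mitochondrial ribosomal protein genes had a median shift of -0.10 (26 of 78 above 0), nuclear-coded oxidative phosphorylation genes -0.10 (25 of 77, with 1 higher and 3 lower at an unadjusted p under 0.05, counts near the 1.84% and 2.89% of all genes), glycolysis and hypoxia genes -0.04 and translation factors 0.05. The complex II gene Sdha (log2 shift 0.53) was above 0 in all 6 cultures, and the complex I genes Ndufb5 and Ndufa4 were at -0.55 and -0.54. Without 3F the oxidative phosphorylation median was 0.00, without 4F -0.06, without 4M -0.01 and without 5M -0.26, and that of mitochondrial ribosomal proteins was -0.03 without 3F, -0.07 without 4F, -0.01 without 4M and -0.17 without 5M.

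Genes of cholesterol synthesis and other targets of the SREBP transcription factors had a median shift of -0.20, with 25 of 32 below 0 (52.1% of all genes were), 4 lower and 0 higher at an unadjusted p under 0.05, where 2.89% of all genes were lower. The median was 0.21 in 3F, where that of all genes was 0.22, and between -0.48 and -0.09 in the other cultures. Fdft1, the squalene synthase, was at 56.1 to 303 CPM in control EVs (median 146) and 53.6 to 244 CPM at 320 mg/dL (median 106), and at medians of 35.5 and 42.3 CPM in cells. The groups overlapped, and its log2 shift of -0.45 (SE 0.17, adjusted p = 0.997) was below 0 in 6 of 6 cultures. Scd1, a fatty acid desaturase, was at -0.47 and below 0 in 6 of 6, and Srebf1, which encodes an SREBP itself (-0.46), and Fads1 (-0.47) were the other members lower at an unadjusted p under 0.05. Without 5M the list median was -0.10 with 0 genes under an unadjusted p of 0.05, without 4M it was -0.23, also with 0, without 3F -0.25 with 3 and without 4F -0.17 with 2.

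**Figure D4:**
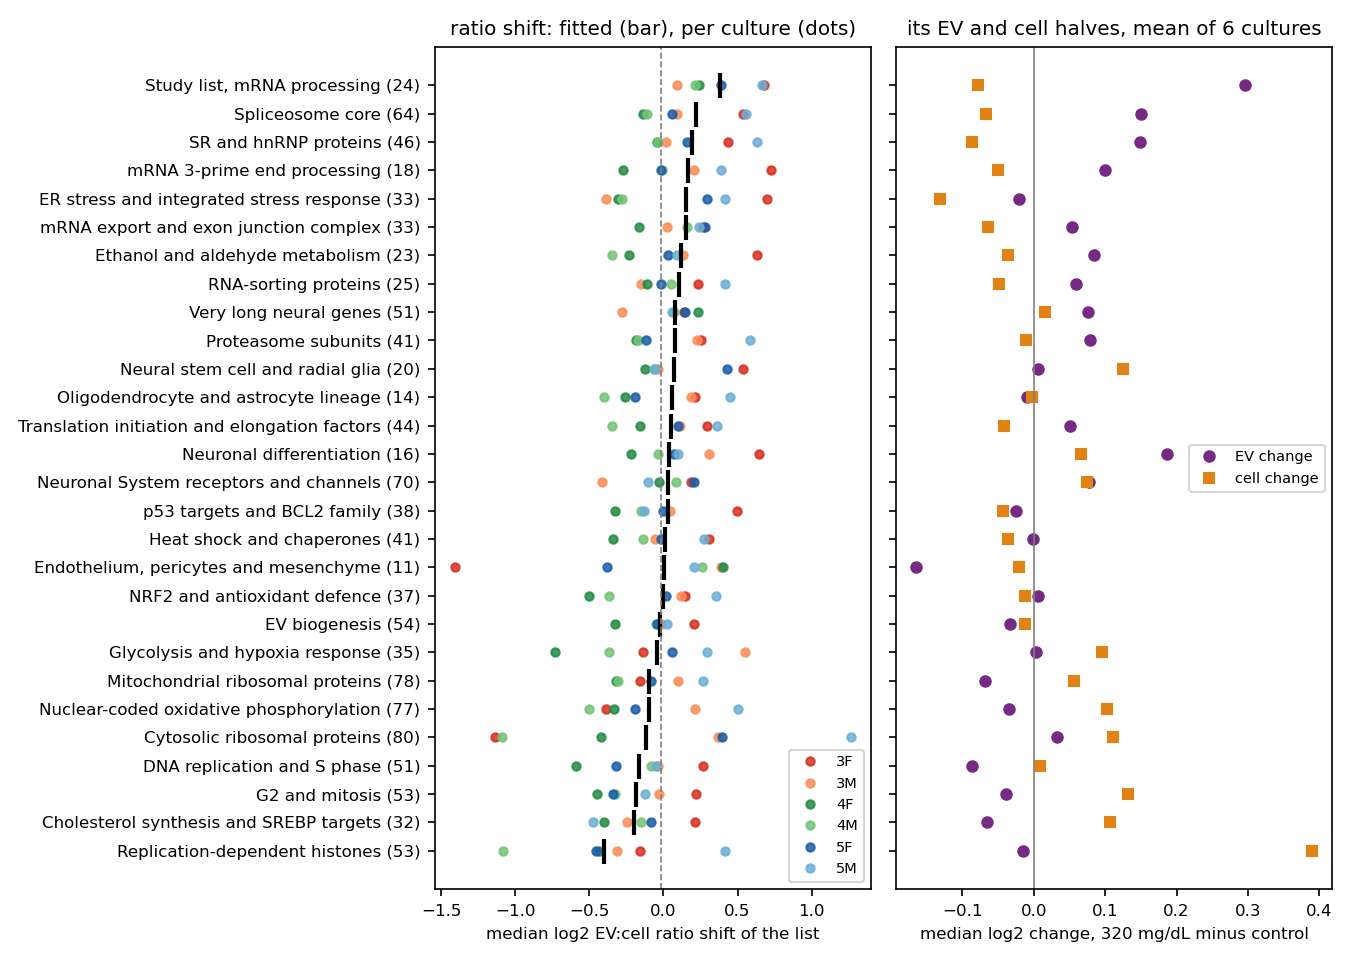
Median log2 shift of the gene lists with over 10 tested genes, in each of the 6 cultures (dots) and in the fit over all 6 (black bar), with the median of all genes as a dashed line and the medians of the EV and cell changes in the right panel. Histone genes have the lowest value, at -0.40, and the study's own list, chosen on these same libraries, the highest, at 0.38. The other mRNA processing lists lie at 0.15 to 0.22, and ribosomal protein genes spread from -1.14 to 1.27 over cultures.

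Stress and ethanol response lists had medians between 0.00 and 0.16. Genes of ER stress and the integrated stress response were at 0.16 (20 of 33 above 0, 1 higher and 1 lower at an unadjusted p under 0.05), of ethanol and aldehyde metabolism at 0.12 (16 of 23, 0 in either direction), of heat shock at 0.01 and of the NRF2 antioxidant response at 0.00. Targets of p53 and the BCL2 family were at 0.03, with 1 of 38 genes higher and 4 lower at an unadjusted p under 0.05, where 1.84% and 2.89% of all genes were. Without 3F the p53 and BCL2 median was -0.03, and under library totals -0.07. Without 5M the ER stress median was 0.06 and that of ethanol metabolism 0.03, without 5F that of ER stress was 0.07, and under library totals, where the median of all genes was -0.14, they were 0.02 and 0.00. Mdm2, the ubiquitin ligase that limits p53, was at 111 to 853 CPM in control EVs (median 339) and 335 to 1930 CPM at 320 mg/dL (median 786), with medians of 71.2 and 65.9 CPM in cells. The log2 shift was 1.21 (SE 0.33, adjusted p = 0.87), above 0 in 5 of 6 cultures and -0.32 in 3M. Hrk, a BCL2 family member that promotes cell death, was at 10.9 to 24.6 CPM in control EVs and 2.47 to 10.5 CPM at 320 mg/dL. The EV groups lay close to each other, and how many of all genes have groups without overlap was not counted. In cells it was low, at medians of 0.698 and 0.745 CPM. The log2 shift of Hrk was -1.28 (SE 0.30, adjusted p = 0.64), below 0 in 6 of 6 cultures, which was a condition for naming it.

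Most lists of cell identity and of the vesicle machinery had medians between -0.02 and 0.13, and that of microglia and blood cells lay lower. NSC and radial glia genes had a median shift of 0.07 over 20 genes, neuronal differentiation genes 0.04 over 16, oligodendrocyte and astrocyte genes 0.06 over 14, receptors and channels of the neuronal system 0.03 over 70 and very long neural genes 0.08 over 51. EV biogenesis genes were at -0.02 over 54, RNA-sorting proteins reported for EVs at 0.10 over 25 and proteasome subunits at 0.08 over 41. Of 18 genes of microglia and blood cells, 4 could be tested, all below 0, with a median of -0.52, and of the other cell types endothelium and mesenchyme were at 0.01 over 11 and epithelium at 0.13 over 2. Hes1, a Notch effector that keeps NSCs dividing, was at 2.43 to 4.74 CPM in control EVs and 2.47 to 11.6 CPM at 320 mg/dL, with a log2 shift of 0.94 (SE 0.27, adjusted p = 0.91), above 0 in 6 of 6 cultures.

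Single genes were named by smallest unadjusted p among those with one sign in all 6 cultures and a mean of at least 10 counts per EV library, 12 in each direction, because none passed the adjusted threshold. One sign in all 6 cultures is thus part of how they were chosen and not a finding about them.

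Pappa, a secreted protease that frees insulin-like growth factors (chr4:65042411-65275746), had 19 to 92.9 CPM in control EVs (median 46.4) and 25.9 to 225 CPM at 320 mg/dL (median 83.3). In cells it had medians of 7.77 and 8.16 CPM. The groups overlapped, but the ratio was higher at 320 mg/dL in each culture, by 0.40 to 1.57, and its log2 shift was 0.94 (SE 0.19, adjusted p = 0.54). Adgrb1, an adhesion G protein-coupled receptor (chr15:74388044-74461314), had 86.0 to 908 CPM in control EVs (median 251) and 274 to 2270 CPM at 320 mg/dL (median 664), with a log2 shift of 1.06 (SE 0.25, adjusted p = 0.65). Slc22a2, an organic cation transporter (chr17:12803019-12847375), had medians of 12.6 and 27.4 CPM in EVs and 5.15 and 4.40 CPM in cells, and a log2 shift of 1.49 (SE 0.31, adjusted p = 0.54). Its culture shifts ran from 0.58 in 4M to 2.90 in 5F. Col5a3 (0.93), a collagen gene, Zfp512b (1.07), Edem3 (0.65), Entpd3 (3.34), 4930467D21Rik (1.81), Gm33827 (4.22), Gm35143 (3.92), Gm20125 (3.02) and Cks1brt (13.64) were the other genes named on this side.

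Some of the largest shifts rested on extreme counts in a few libraries. Cks1brt, a retrogene of the cell cycle subunit Cks1b, had the smallest p (adjusted p = 0.30). Its EV counts were 0 to 5 without ethanol, and at 320 mg/dL they were 6184 in 3F, 2268 in 5M and 2 to 5 in the other cultures. Its cell count was 2284 in 3F without ethanol and 0 to 5 in the other cell libraries, and without 3F the log2 shift was 5.44. Gm20125, a long noncoding RNA gene, had cell counts of 13636 in 3F, 12525 in 4F, 10239 in 5F and 2859 in 5M without ethanol, and of 64, 9935, 135 and 63 in the same cultures at 320 mg/dL, so that its positive shift lay on the cell side.

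**Figure D5:**
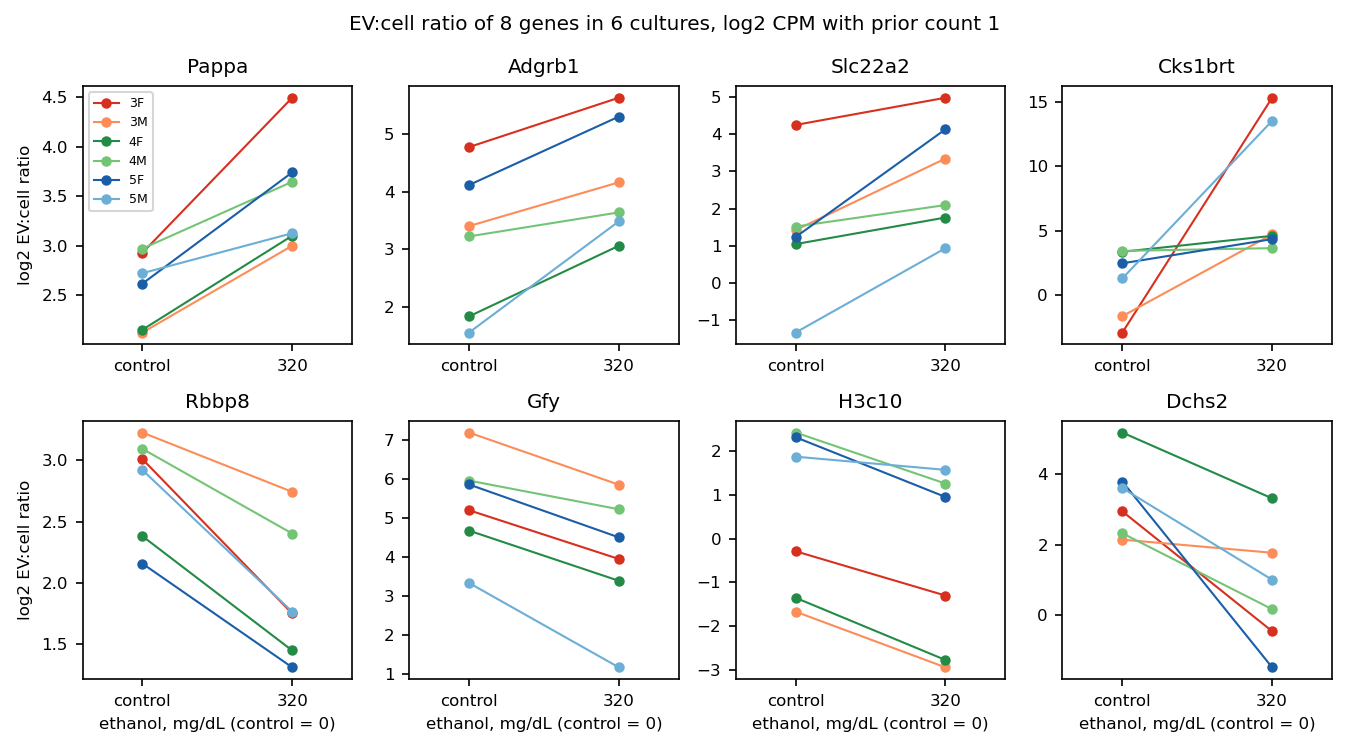
Log2 EV-to-cell ratio without ethanol and at 320 mg/dL, joined by a line for each of the 6 cultures, for Pappa, Adgrb1, Slc22a2, Cks1brt, Rbbp8, Gfy, H3c10 and Dchs2. Lines slope up in every culture for the first 4 genes and down for the last 4, while for most genes cultures differ in level by more than the slope.

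On the negative side, Rbbp8, which encodes CtIP, a protein of DNA end resection, had 160 to 372 CPM in control EVs (median 295) and 90.5 to 236 CPM at 320 mg/dL (median 135). In cells it had 34.7 to 40.9 CPM and 35.2 to 41.3 CPM. The EV ranges overlapped and the cell ranges were nearly the same, and its log2 shift was -0.89 (SE 0.19, adjusted p = 0.60). Gfy, which encodes an olfactory Golgi protein (chr7:44825773-44828993), had medians of 27.1 and 15.4 CPM in EVs and 0.469 and 0.796 CPM in cells, with a log2 shift of -1.34 (SE 0.26, adjusted p = 0.54). Dchs2, a protocadherin gene (chr3:83034897-83264516), lay on the cell side, with 0.930 to 6.41 CPM in control cells (median 2.38) and 4.86 to 47.9 CPM at 320 mg/dL (median 20.3). Its EV medians were 19.9 and 18.8 CPM, and its log2 shift was -2.61 (SE 0.44, adjusted p = 0.37). Net1 (-0.91), Sec22c (-0.80), Rmi2 (-1.02), Abi3 (-2.47), Tsga10ip (-1.89), Gm40617 (-2.81) and Gm11274 (-1.13), with H3c10 and Hrk above, completed this side. Gm11274, at chr13:21941595-21955933, lies in the histone cluster near H4c12.

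The features that held the largest shares of EV counts had shifts well within their errors. Cdk8 was at 0.05, mt-Rnr2 at 0.13, LOC118568312 at 0.33, Gm36876 at 0.23 and Gm39850 at -0.09 on the log2 scale, with SEs of 0.52 to 0.63. The first is annotated as a kinase gene and the second is the large mitochondrial rRNA. Cdk8 had a median of 84900 CPM in control EVs and 8090 CPM in control cells. Whether the reads counted on Cdk8, LOC118568312, Gm36876 and Gm39850 come from the transcripts of those genes was not tested.

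Whether the shift differed between female and male cultures was tested gene by gene. The difference, female minus male, had 0 of 17400 genes (0%) past an adjusted p of 0.05 in edgeR, 855 (4.91%) at an unadjusted p under 0.05, and a smallest adjusted p of 0.13, while DESeq2 called 3. With 3 cultures of each sex, sex differences within the spread between cultures were not detectable.

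At 120 mg/dL the same quantity was tested over 17629 genes with the same 12 control libraries, so the doses are set side by side and not compared. In edgeR 2 genes (0.0113%) passed, and 608 (3.45%) had an unadjusted p under 0.05. Cnnm3, a magnesium transport protein gene (chr1:36550884-36567318), had 21 to 136 EV counts without ethanol, 44 to 18891 at 120 mg/dL and 23 to 138 at 320 mg/dL. The log2 shift was 6.23 at 120 mg/dL (SE 0.78, adjusted p = 0.00633) and 0.28 at 320 mg/dL (adjusted p = 1). Otog, which encodes a protein of the inner ear (chr7:45890411-45960858), had 2 to 2523 EV counts without ethanol, 1 to 11 at 120 mg/dL and 1 to 6 at 320 mg/dL. The log2 shift of Otog was -5.72 at 120 mg/dL (SE 0.78, adjusted p = 0.00915) and -4.97 at 320 mg/dL (SE 1.14, adjusted p = 0.64), and the control EV counts that set it were 243 in 4M, 430 in 5F and 2523 in 5M. The list medians at 120 mg/dL were -0.21 for histones, -0.21 for G2 and mitosis, -0.16 for cholesterol synthesis, 0.06 for the core spliceosome, 0.15 for SR and hnRNP genes and 0.22 for the study's list.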

How the data were processed

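RNA of EVs and cells was depleted of ribosomal RNA and made into stranded libraries. Per the study's methods and the processing notes, reads were trimmed with Trimmomatic, deduplicated, aligned to mm39 with STAR and counted per gene with HTSeq, whose strand and multimapping settings are not given in the sources used here. The deposited values are the authors' whole, unnormalized counts for 40205 features per library, and they were used as deposited. Members, gene lists and tests were chosen with earlier results of these data known.

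The fit was made in edgeR 4.0.16 (R 4.3.3). After filterByExpr (at least 10 counts, 15 in total) and TMM scaling, the interaction of location and dose was tested by edgeR's quasi-likelihood test, blocked on each matched EV and cell pair and with a term for location within culture, and adjusted by Benjamini-Hochberg (threshold 0.05). Per-culture values are differences of log2 CPM (prior count 1), and the CPM of single genes were scaled by TMM. Classes were tested by exact sign changes over 6 cultures. Named genes were, in each direction, the 12 of smallest p with one sign in all 6 cultures and a mean of at least 10 EV counts, and in each list or class the 3 with most EV counts and the 2 of smallest p with one sign. The study's 24 genes, the 5 features with the largest EV shares and 4 Y-linked genes completed them. Other members were named after their values were seen. RNA classes came from the GENCODE and RefSeq annotation of GRCm39 by symbol, which matched 38834 features, and 1365 were left as unmatched. Sequences were read from the GRCm39 genome with pysam 0.24.0.

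The libraries of a culture are paired by the labels. Correlations of their deviations from group means were 0.0844 to 0.367 between control and 320 mg/dL EVs, 0.421 to 0.665 between such cells, and -0.0123 to 0.227 between EVs and cells. The alternatives were DESeq2 1.42.0, limma voom 3.58.1, other scalings, filters and blocks, thinning to 1124918 counts, the study's criteria, and leaving out each culture or pregnancy. List medians under these alternatives, and class shifts on the TMM scale without each culture, were additions made after seeing the data. The edgeR and DESeq2 fits of the 320 mg/dL shift were tested on simulated data, and the other fits were not.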

Additional observations from a re-analysis of the deposited data

Results flagged for a closer look

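Values of the 6 cultures were checked for a single culture far from the others by Dixon's criterion in 68 sets of 6 values (13 RNA classes, 31 list medians and 24 single genes). Chance flags about 1 set in 20, and 4 were found. As shares of all counts, the shift of long noncoding RNAs, a class with a few loci of very high counts, was 1.39 in 4F and -0.33 to 0.14 in the other cultures. That of microRNA precursors was 0.94 in 4F and -1.15 to -0.65 in the others. The median of very long neural genes was -0.28 in 3M and 0.06 to 0.23 in the others. H3c10 was at -0.30 in 5M and at -1.42 to -1.01 in the others. In the edgeR test of the difference between female and male cultures, 0 genes passed an adjusted p of 0.05 and 855 had an unadjusted p under 0.05, while DESeq2 called 3 and edgeR with library totals 25.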

How the results depend on the processing

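The count of genes past the threshold depended on the filter, scaling and tool. For the shift at 320 mg/dL it was 0 as reported, 33 with library totals (14 higher), 107 with every gene of at least 1 count kept (62 higher), 2 after thinning, and 11 in DESeq2, which left 1882 genes with an adjusted p. The study's criteria on the log2 ratio, which use an unadjusted p under 0.05, gave 424 of 17400 genes (2.44%, 296 of them higher). Without pregnancy Set 5 the count was 10, without Set 4 it was 1, and without single cultures it was 0 to 2. It was 0 with the other scalings, a mean of 10 counts, voom, 36 libraries and without Set 3. With the pair alone as replicate block it was 0 (159 at an unadjusted p under 0.05), and without a replicate block 0 (270). For the shift at 120 mg/dL, library totals gave 15, the pair alone as block 0 and leaving out a culture 2 to 6, in place of 2. For the sex difference, library totals gave 25 and DESeq2 3. For the EV change, library totals gave 23, DESeq2 164, leaving out a culture 0 to 1 and no replicate block 0. For the cell change, DESeq2 gave 12 and no replicate block 0. The cause was not tested. No class shift or list median moved by more than 1 SD over cultures, which is a wide limit. For ribosomal proteins the SD was 0.95, and a median going from -0.12 to 0.14 without 3F lay within it. Leaving out a single culture cannot move a class mean by 1 SD, so for class means that part of the check could not fail. Of the named genes, Cks1brt without 3F and Eno1 without a block moved by more than 1 SD. In 39 other pairs of a named gene and a setting, the gene passed the adjusted threshold with the same sign. The list medians of histones (-0.57 to -0.14), the core spliceosome (0.11 to 0.36) and SR and hnRNP genes (0.07 to 0.38) kept their sign in 21 settings. Of 29 list medians with enough genes, 19 turned sign in at least 1 of these settings, among them ribosomal proteins, oxidative phosphorylation, S phase, p53 targets and ethanol metabolism. EV depth limits genes of few counts, for which differences within the spread between cultures were not detectable.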
